A study of Mus musculus with 9 samples.

Results

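Pebp1 encodes RKIP, the RAF kinase inhibitor protein, a small cytosolic protein that binds phosphatidylethanolamine. RKIP restrains the kinase cascade of MEK and ERK, and after phosphorylation by protein kinase C it binds the G protein-coupled receptor kinase GRK2 instead, so that receptors of the heart such as the β-adrenoceptors are less desensitised. Pbp2 is a mouse paralog without introns that is known for its expression in testis, and Pebp4 is a more distant member of the same family. The transcript rows with these 3 gene names were taken by name from the deposited tables, and they are 6 of 127558 rows and 3 of 41710 gene names. The members were chosen by their names, with their reads and TPM in all 3 groups known, so the levels of the members in Tg-RKIP against FVB are given as a description without a test.

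The cardiac transcriptome was sequenced in 9 libraries of hearts from male, 8-month-old mice of FVB/N background. There were 3 libraries of Tg-RKIP mice, which carry RKIP as a transgene, 3 Tg-GRK2-labelled libraries, whose label gives GRK2 as the transgene, and 3 libraries of non-transgenic FVB controls. The alpha-MHC promoter, which is the promoter of the myosin gene Myh6 and is active in cardiomyocytes, drives RKIP in the Tg-RKIP mice, and the promoter behind the Tg-GRK2 label and the origin and extent of the RKIP sequence in the transgene are not given in the sources used here. Each library was labelled with its group and a replicate number. Single reads of 50 bases were sequenced from fragmented RNA.

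The deposited reads per library ranged from 25458108 to 33447654. The 8 cardiomyocyte markers checked were summed in TPM, a unit corrected for transcript length, with an equal sum in each library. Their sum was 59304 to 60425 TPM in Tg-RKIP, 61308 to 63064 TPM in the Tg-GRK2-labelled libraries and 63760 to 64041 TPM in FVB. Ryr2 (means of 58.3 TPM in Tg-RKIP and 207 in FVB), Pln, Myh6, Myl2, Mb and Tnni3 were lower in Tg-RKIP than in FVB. Actc1 (11515 and 8728 TPM) and Tnnt2 (9507 and 7660 TPM) were higher. The share of mitochondrial reads was 11.5 to 11.8% in Tg-RKIP and 22.4 to 23.2% in the other 6 libraries. Grk2 was not higher in the Tg-GRK2-labelled libraries than in FVB (27.3 ± 2.90 and 27.1 ± 1.05 TPM, SD, n = 3, and an edgeR adjusted p = 0.354), so these libraries are named by their label. Summed markers of alveolar and airway epithelium were 0.396 to 0.574 TPM in FVB controls, 52.8 to 53.7 TPM in Tg-RKIP hearts and 126 to 133 TPM in the Tg-GRK2-labelled libraries, with Sftpc at 3 reads or fewer in all of them, and 7 of the 8 markers at that level in FVB. Nearly all of this sum was Scgb1a1, a secretory gene of the airway, with means of 49.4 TPM in Tg-RKIP, 128 TPM in the Tg-GRK2-labelled libraries and no read in FVB. Fibroblast, macrophage, adipocyte and skeletal muscle markers summed to 2044 to 2052, 489 to 500, 166 to 174 and 5305 to 5426 TPM in Tg-RKIP and to 891 to 916, 200 to 204, 16.3 to 17.8 and 2493 to 2494 TPM in FVB. The rise of the skeletal muscle sum lay in Acta1, the skeletal actin gene that hearts also express (means of 3579 TPM in Tg-RKIP hearts and 423 in the controls), while Ckm was at 1800 and 2069 TPM and Myh1, Myh2 and Myh4 were at most at 0.0919 TPM on average. Endothelial and neuronal markers summed to 434 to 438 and 36.8 to 40.2 TPM in Tg-RKIP and to 299 to 302 and 31.9 to 33.5 TPM in FVB. The endothelial genes went both ways. Emcn (means of 122 TPM in Tg-RKIP and 51.0 in FVB), Pecam1 and Egfl7 were higher, and Kdr (29.3 and 38.9 TPM), Cdh5 and Tek were lower. Most of the neuronal sum was Slc17a7, at 26.6 and 24.9 TPM. In bulk hearts, fewer cells of a type and less RNA per cell cannot be told apart, and the part of these markers in the levels below was not tested. Over genes with a mean of at least 100 reads, the median squared difference between libraries of the same group was 1.37 to 1.56 times that of counting noise, so the SDs and p-values below measure a spread not far above counting noise.

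The deposited tables hold 4 transcripts of Pebp1, all on the minus strand of chromosome 5 between 117420719 and 117425690 (GRCm39, as named in the submitters' processing notes). Pebp1-201, of 1240 bases in 4 exons, codes for a protein of 187 residues. Pebp1-202, of 779 bases in 5 exons, shares the protein-coding frame and carries an additional exon of 66 bases at chr5:117422129-117422194. Pebp1-203 is annotated as a retained intron and Pebp1-204 as a target of nonsense-mediated decay. Pbp2 is a single exon of 1279 bases at chr6:135286125-135287403 on the minus strand, and Pebp4 has 7 exons on the plus strand at chr14:70077869-70297367. The lengths of all 6 transcripts were equal in GENCODE M21, from which the sequences below were read by transcript identifier.

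**Figure D1:**
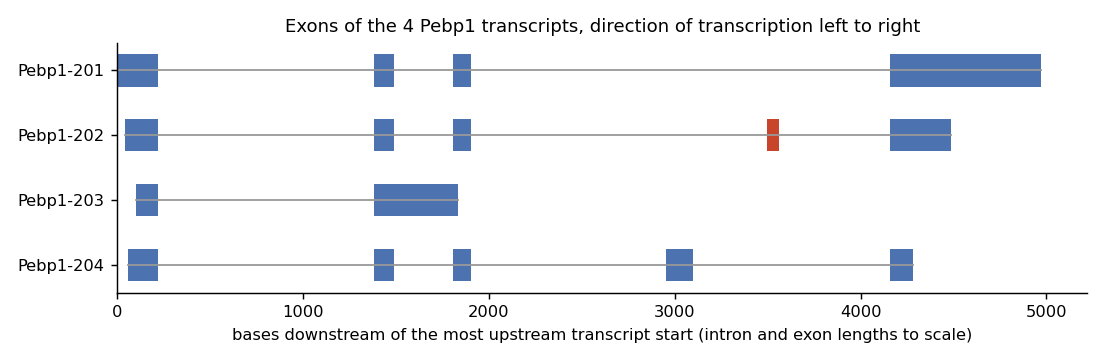
Exons of the 4 Pebp1 transcripts as boxes, placed by their distance in bases from the most upstream start, with transcription from left to right. The exon of 66 bases in red is present in Pebp1-202 alone, and Pebp1-201 extends beyond Pebp1-202 at both ends.

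The extra exon keeps the reading frame, adding 22 codons at coding bases 347 to 412. It is shown because it is the one coding difference between the 2 transcripts on which the Tg-RKIP levels turn. The sequences are printed 5′ to 3′ from coding base 317, with the extra exon of Pebp1-202 in capitals, and with the bases of Pbp2 that differ from Pebp1-201 in capitals. Among 141767 transcripts of GENCODE M21, 1 contained the full exon sequence, which was Pebp1-202 itself.
Pebp1-202: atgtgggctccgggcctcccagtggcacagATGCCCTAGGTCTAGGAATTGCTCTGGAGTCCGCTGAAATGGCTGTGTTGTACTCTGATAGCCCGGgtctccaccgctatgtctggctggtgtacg
Pebp1-201: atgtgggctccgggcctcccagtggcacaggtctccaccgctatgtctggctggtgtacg
Pbp2: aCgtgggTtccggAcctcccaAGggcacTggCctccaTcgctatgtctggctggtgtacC

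Pbp2 aligned with Pebp1-201 over the full coding length without a gap, with 461 of 564 coding bases (81.74%) and 148 of 187 translated residues (79.14%) identical. Pebp4 was more distant, with 65 of 181 aligned residues (35.91%) identical to Pebp1. The closest stretch of 120 bases between Pbp2 and Pebp1-201, at coding bases 99 to 218, held 15 differences. It is shown with the differing bases in capitals because it is the part in which reads of both genes are most alike over more than 1 read length.
Pebp1-201: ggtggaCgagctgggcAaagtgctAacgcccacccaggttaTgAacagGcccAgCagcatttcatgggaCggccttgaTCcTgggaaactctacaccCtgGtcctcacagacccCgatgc
Pbp2: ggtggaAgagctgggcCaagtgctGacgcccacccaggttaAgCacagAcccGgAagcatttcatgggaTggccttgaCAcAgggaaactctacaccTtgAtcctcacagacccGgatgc

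Pebp1 was the gene at rank 6 by TPM in all 3 Tg-RKIP libraries. Its level summed over transcripts was 16371, 15967 and 16257 TPM in Tg-RKIP, 327, 319 and 316 TPM in the Tg-GRK2-labelled libraries, and 324, 330 and 321 TPM in FVB. The Tg-RKIP libraries lay far above the other 6, which overlapped with each other. The mean in Tg-RKIP was 49.9-fold (± 0.642, SD, n = 3) that of FVB, and the gene's rank in FVB was 334 to 338. On other scales the fold was smaller, with 36.5 in RPM, the reads scaled to library size, and 28.1 in RPM normalised by TMM, a scaling that sets the bulk of genes equal between libraries.

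Pebp1-201 accounted for nearly the whole gene outside of Tg-RKIP. It received 113710, 141373 and 113894 reads in Tg-RKIP, 7665, 7188 and 8381 reads in the Tg-GRK2-labelled libraries, and 7279, 8436 and 7140 reads in FVB. In TPM this was 5430 ± 143 in Tg-RKIP, 320 ± 5.71 in the Tg-GRK2-labelled libraries and 324 ± 4.19 in FVB (SD, n = 3 each). The TPM fold of this transcript alone in Tg-RKIP over FVB was 16.7 ± 0.441.

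Of the Pebp1 transcripts, Pebp1-202, with the additional exon, was given the most reads in Tg-RKIP hearts. How many of these reads cover that exon was not tested. Pebp1-202 received 142005, 180280 and 138285 reads in Tg-RKIP, 3, 0 and 0 in the Tg-GRK2-labelled libraries, and 5, 0 and 0 in FVB. The level in Tg-RKIP was 10767 ± 108 TPM (SD, n = 3). In the other groups 4 of 6 libraries had no read, and the remaining 8 reads lay in 1 library of each group. The ratio of summed RPM between Tg-RKIP and FVB was 92389, with an exact 95% counting interval of 39589 to 284541 that reflects the 5 reads in FVB and covers counting error only.

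**Figure D2:**
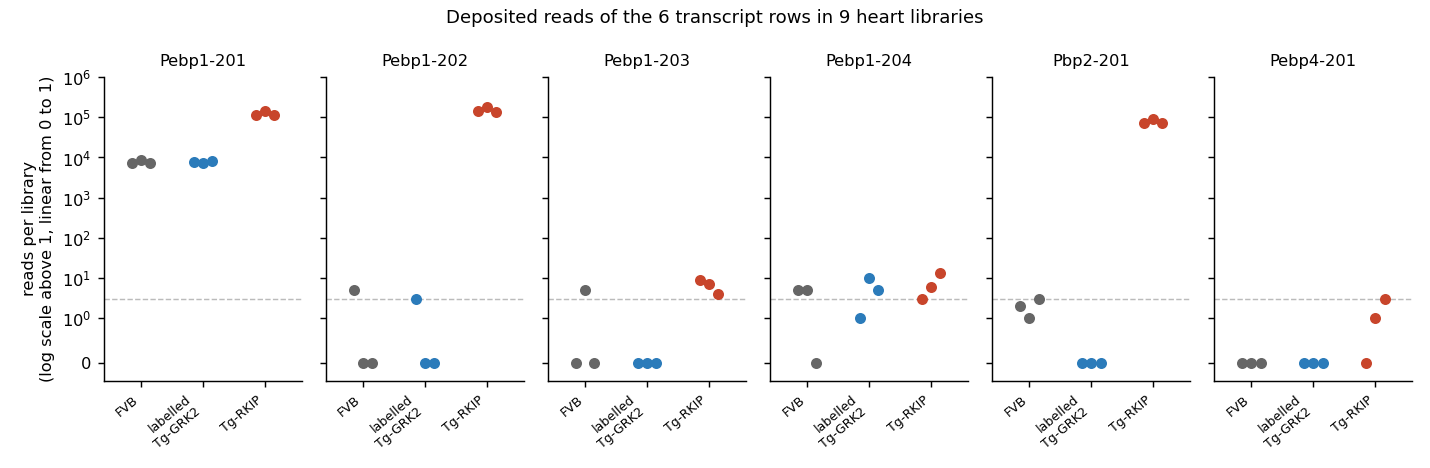
Deposited reads per library (y axis, logarithmic above 1 and linear from 0 to 1) of the 6 transcript rows, with 1 point per library in FVB (grey), the Tg-GRK2-labelled libraries (blue) and Tg-RKIP (red), and a dashed line at 3 reads. Pebp1-202 and Pbp2 lie at 70425 reads or more in every Tg-RKIP library and at 5 reads or fewer in the other 6, while Pebp1-201 lies at 7140 reads or more in all 9.

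The division of Pebp1 reads between these transcripts was similar in the 3 Tg-RKIP hearts. Pebp1-202 took 55.5, 56.0 and 54.8% of the Pebp1 reads (mean 55.5 ± 0.609%, SD, n = 3), with Wilson 95% intervals of single libraries between 54.6 and 56.2%. Its reads were 1.25, 1.28 and 1.21 times those of Pebp1-201, and 1.99, 2.03 and 1.93 times per base of transcript. Because Pebp1-202 is the shorter transcript, its share of the gene's TPM was larger, at 66.5 ± 0.550%. In the FVB library with 5 reads of Pebp1-202 the share was 0.0686% (Wilson 95% interval 0.0293 to 0.160%), and in the Tg-GRK2-labelled library with 3 reads it was 0.0391% (0.0133 to 0.115%).

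**Figure D3:**
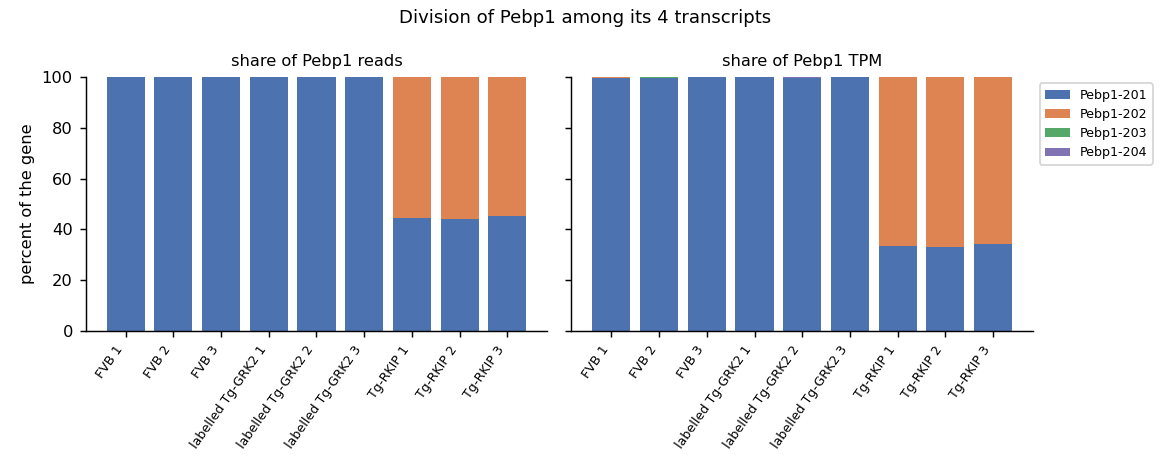
Percent of the Pebp1 reads (left) and of the Pebp1 TPM (right) given to each transcript in each of the 9 libraries, as stacked bars. Pebp1-202 (orange) makes up 54.8 to 56.0% of the reads in Tg-RKIP and at most 0.0686% in the other libraries, and the shares of Pebp1-203 and Pebp1-204 are too small to be visible.

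Pebp1-203 and Pebp1-204 stayed at low counts in all hearts. The retained-intron transcript Pebp1-203 had 9, 7 and 4 reads in Tg-RKIP, 0 reads in each Tg-GRK2-labelled library, and 0, 5 and 0 reads in FVB. Pebp1-204 had 3, 6 and 13 reads in Tg-RKIP, 1, 10 and 5 in the Tg-GRK2-labelled libraries, and 5, 5 and 0 in FVB. For Pebp1-204 the 3 groups overlapped, and for Pebp1-203 Tg-RKIP overlapped with the FVB library that had 5 reads.

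How the authors' counting divided reads that fit more than 1 transcript is not given in the sources used here, and most of Pebp1-202 cannot be told from Pebp1-201 at the read length. Of the 730 windows of 50 bases in Pebp1-202, 616 (84.38%) were identical in Pebp1-201 and 114 were not. Of 1191 such windows in Pebp1-201, 575 were absent from Pebp1-202. The positions of single reads were not analysed here, so the number of reads that cover the 66-base exon is not known. Windows of Pebp1-201 were also identical in the GENCODE M21 processed pseudogenes Gm10819 (386 windows) and Gm9824 (265 windows), which were not analysed here.

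Pbp2 was given many reads in Tg-RKIP hearts and hardly any elsewhere. It had 71283, 90196 and 70425 reads in Tg-RKIP, 0 reads in each Tg-GRK2-labelled library, and 2, 1 and 3 reads in FVB. Its level in Tg-RKIP was 3304 ± 38.8 TPM (SD, n = 3), which placed it at rank 32 of all genes in each of these libraries. The ratio of RPM between Tg-RKIP and FVB was 38766 (exact 95% counting interval 17810 to 105636). Against a floor of 3 reads in each Tg-GRK2-labelled library, the level in Tg-RKIP was at least 25286-fold higher.

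The reads of Pbp2 kept an almost constant proportion to those of Pebp1 within Tg-RKIP. They amounted to 27.9, 28.0 and 27.9% of the Pebp1 reads. In FVB, with 1 to 3 reads of Pbp2, they were 0.0118 to 0.0420% of the Pebp1 reads. Pebp1 and Pbp2 together made up 1.23 to 1.27% of all reads of a Tg-RKIP library.

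At the length of 1 read, the mouse reference transcripts of Pbp2 and Pebp1 differed throughout. None of 1230 windows of 50 bases along Pbp2 (0 of 1230) occurred in a Pebp1 transcript with 2 mismatches or fewer, and 3 windows did with 3 mismatches. The longest run of identical coding bases was 21, at coding bases 355 to 375, within the stretch printed above from coding base 317. The windows outside of the coding bases of Pbp2 had at least 14 mismatches to the nearest Pebp1 window. The windows were compared with the reference transcripts only. The RKIP sequence in the transgene, whose origin is not known, was not among them. Whether reads of the transgene fit Pbp2 was therefore not tested.

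**Figure D4:**
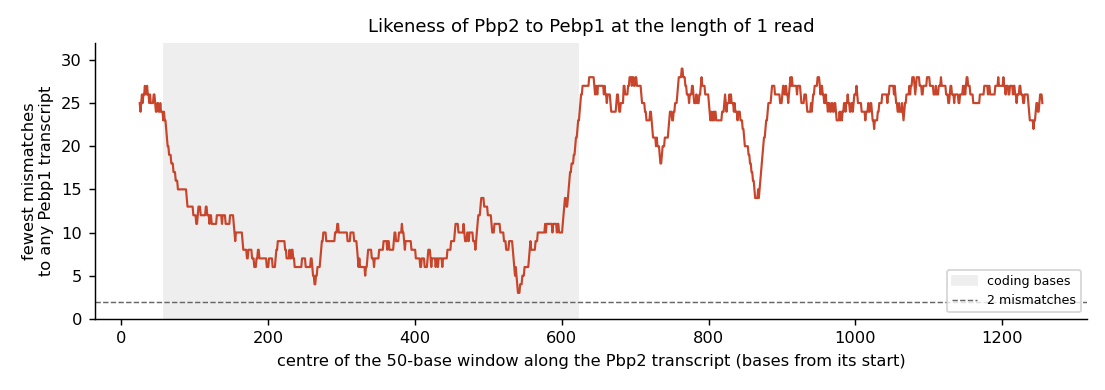
Fewest mismatches (y axis) between each window of 50 bases along the Pbp2 transcript (x axis, window centre in bases from the transcript start) and any window of any Pebp1 transcript, where the coding bases are shaded and the dashed line marks 2 mismatches. The curve reaches its lowest value of 3 near the end of the coding bases.

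Testis germ cell markers were checked beside Pbp2 because of its known site of expression. All 8 of 8 markers, which included the protamine genes Prm1 and Prm2 and the sperm lactate dehydrogenase gene Ldhc, were at 3 reads or fewer in each Tg-RKIP library, and their summed level was 0.0832 to 0.373 TPM. In the Tg-GRK2-labelled libraries and in FVB 7 of 8 were at that level, with sums of 0.275 to 0.424 and 0.132 to 0.420 TPM. The summed germ cell markers thus overlapped among groups, while Pbp2 did not.

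Pebp4 was not detectable at a level that allows a comparison. It had 0, 1 and 3 reads in Tg-RKIP and 0 reads in each of the other 6 libraries. At these depths 3 reads correspond to 0.0897 to 0.118 RPM. No fold is given and Pebp4 was not tested, because it did not pass the filter on low counts.

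By deposited level, the transcripts in Tg-RKIP followed the order Pebp1-202, Pebp1-201 and Pbp2 in TPM, without overlap between the 3 libraries of neighbouring transcripts. In FVB and in the Tg-GRK2-labelled libraries the order began with Pebp1-201, and all other rows lay at 10 reads or fewer, where their order cannot be told. As Myh6 provides the promoter of the RKIP transgene, its level was compared. Myh6 was at 6484 ± 48.0 TPM in Tg-RKIP, 7724 ± 134 TPM in the Tg-GRK2-labelled libraries and 7374 ± 113 TPM in FVB (SD, n = 3 each), and Pebp1 in Tg-RKIP exceeded it in TPM. In RPM, which are not divided by length, the order was turned, with Myh6 at 11145 ± 114 and Pebp1 at 9793 ± 154 in Tg-RKIP, and Myh6 was at 21921 ± 259 in FVB. By edgeR the log2 fold change of Myh6 in Tg-RKIP against FVB was -1.35 (SE 0.0097, adjusted p = 1.45e-28), and that of Myh7, the slow myosin heavy chain, was 0.89 (SE 0.016, adjusted p = 6.81e-22). The size of these changes depended on the scale. With library size scaling Myh6 was at -0.98 and Myh7 at 1.27, and in TPM they were at -0.19 and 1.15.

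Pebp1 in the Tg-GRK2-labelled libraries was also compared with FVB, and as its levels there were known when the members were chosen, the values of this comparison are not independent of that choice. In edgeR's quasi-likelihood test across all genes, Pebp1 was slightly lower in these libraries than in FVB, with 280 ± 5.66 against 294 ± 4.23 TMM-normalised RPM (SD, n = 3 each). The log2 fold change was -0.071 (SE 0.017, 95% interval -0.106 to -0.035, adjusted p = 0.00342), in a comparison in which 24.5% of the 15504 genes tested passed the threshold of 0.05. The call was lost on the TPM scale, in which limma gave -0.020 with an adjusted p = 0.692. At the level of transcripts, where 3.42% of 34991 rows passed, Pebp1-201 had a log2 fold change of -0.064 (SE 0.023, adjusted p = 0.230 by edgeR). Of the markers given above, Scgb1a1 was higher in the same libraries than in FVB. The summed adipocyte (28.0 to 31.3 TPM), macrophage (228 to 240 TPM), fibroblast (965 to 979 TPM), skeletal muscle (2545 to 2639 TPM), endothelial (303 to 313 TPM) and neuronal (47.1 to 49.4 TPM) markers also lay above those of FVB without overlap, and the cardiomyocyte sum (61308 to 63064 TPM) lay below it. Within these sums, the means of the endothelial genes Pecam1, Emcn and Egfl7 and of the macrophage gene Cd163 lay below FVB. Those of the cardiomyocyte genes Myh6, Ryr2 and Pln lay above it. The part of these markers in the difference of Pebp1 was not tested.

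Pbp2 and Pebp1-202 passed the filter on low counts through their Tg-RKIP reads alone. Pbp2 had 6 reads in FVB and 0 in the Tg-GRK2-labelled libraries, and Pebp1-202 had 5 and 3, so no fold or test is given for either. Pebp1-203, Pebp1-204 and Pebp4-201 did not pass the filter.

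The kinases that RKIP binds or restrains, with those of the same cascades, were examined as a list of 11 genes. All 11 were tested, and against FVB 5 were higher and 4 lower in Tg-RKIP, or 81.8% called, where 73.9% of all 15504 genes were called, 36.8% as higher and 37.1% as lower. The median log2 fold change of the list was 0.022, beside 0.0085 for all genes tested. With scaling to library size only, 8 were higher and 0 lower, and the median was 0.40 beside 0.38 for all genes, of which 9710 were then higher and 2649 lower in place of 5709 and 5751. The direction of single genes in this comparison therefore depends in part on the scaling.

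Among these kinases the largest log2 fold changes in Tg-RKIP were those of Mapk3, which encodes ERK1 (0.73, SE 0.037, adjusted p = 1.00e-13), and Map3k14, the NF-κB-inducing kinase (0.53, SE 0.10, adjusted p = 1.16e-04, both by edgeR). Mapk3 was at 72.3 ± 2.34 TPM in Tg-RKIP hearts and 32.4 ± 1.65 TPM in controls, and both genes were higher under all scalings. Gsk3b, the glycogen synthase kinase 3β gene, had the lowest value with -0.36 (SE 0.032, adjusted p = 1.66e-09 by edgeR), followed by Chuk, which encodes the IκB kinase subunit IKKα, with -0.35 (SE 0.043, adjusted p = 2.00e-07). These directions did not hold under all scalings. With scaling to library size the log2 fold changes of Gsk3b and Chuk were 0.016 and 0.024, and in TPM Chuk was at 14.9 ± 1.06 in Tg-RKIP hearts and 14.7 ± 0.645 in controls.

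Grk2, the other binding partner of RKIP, did not pass the test in Tg-RKIP against FVB, with a log2 fold change of 0.022 (95% interval -0.056 to 0.10, adjusted p = 0.604 by edgeR). Its level was 36.3 ± 1.59 TPM in Tg-RKIP hearts and 27.1 ± 1.05 TPM in controls, and with library size scaling, in which the median of all genes shifts by 0.38, the log2 fold change was 0.40 (adjusted p = 2.84e-09 by edgeR). Against that shift the change of Grk2 was close to the median of all genes on both scales.

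In the Tg-GRK2-labelled libraries, 2 of the 11 kinases were called against FVB (18.2%, beside 24.5% of all genes, of which 12.2% were higher and 12.2% lower), with a median log2 fold change of 0.043. Gsk3b was higher by 0.16 (SE 0.032, adjusted p = 8.42e-04), and Araf, a kinase of the RAF family, was lower by edgeR (-0.10, SE 0.033, adjusted p = 0.0273). Map3k14 had the lowest value without passing the test (-0.27, SE 0.12, adjusted p = 0.101), and Mapk3 was at 0.11 (SE 0.040, adjusted p = 0.0503). With library size scaling Mapk3 passed and Araf did not (adjusted p = 0.0294 and 0.0508 by edgeR), so that 2 were higher and 0 lower. On that scale 2094 of all 15504 genes were higher and 1654 lower. Without the first or the second of the Tg-GRK2-labelled libraries, or without the second FVB library, 1 of the 11 was called, since Araf no longer passed (adjusted p = 0.0579, 0.106 and 0.194 by edgeR).

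Protein kinase C phosphorylates RKIP and thereby switches its binding to GRK2. Of 8 genes for protein kinase C isoforms, all tested against FVB, 4 were higher and 3 lower in Tg-RKIP hearts (87.5% called, beside 73.9% of all genes, median log2 fold change -0.013). Scaled to library size, 6 were higher and 1 lower, beside 9710 higher and 2649 lower of all 15504 genes. Prkcd rose by 1.19 (SE 0.055, adjusted p = 1.67e-14 by edgeR), with 7.54 ± 0.898 TPM in FVB controls and 22.9 ± 0.294 TPM in Tg-RKIP, and Prkcz rose by 0.89 (SE 0.082). Prkce fell by 0.88 (SE 0.039, adjusted p = 8.88e-15), with 10.3 ± 0.0965 TPM in FVB controls and 7.44 ± 0.252 TPM, and these 3 genes kept their direction under all scalings. Prkch had -0.34 (SE 0.049, adjusted p = 1.95e-06) and turned to 0.031 with library size scaling.

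In the Tg-GRK2-labelled libraries no protein kinase C gene was called (0 of 8 by edgeR and 0 by DESeq2, beside 24.5% of all genes, with 1 at an unadjusted p under 0.05, median log2 fold change 0.015). The highest values were those of Prkcb (0.24, SE 0.15) and Prkcd (0.18, SE 0.064, adjusted p = 0.0519 by edgeR), and the lowest those of Prkcq (-0.10, SE 0.069) and Prkci (-0.076, SE 0.052), both of which were above 0 in TPM. With size factors of DESeq2, with scaling to library size or without the second FVB library, Prkcd passed, so that 1 of 8 was called.

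Of 6 genes whose products are known to regulate Pebp1 transcription, 1 was higher and 4 were lower in Tg-RKIP hearts against FVB (83.3% called, beside 73.9% of all genes, median log2 fold change -0.34). Snai1, which encodes the repressor Snail, rose by 1.64 (SE 0.13, adjusted p = 2.04e-10 by edgeR), with 2.17 ± 0.455 TPM in FVB controls and 9.18 ± 0.688 TPM in Tg-RKIP. Ezh2, a histone methyltransferase, had the next highest value with 0.17 (SE 0.12, adjusted p = 0.191). The co-activator gene Ep300 had -0.78 (SE 0.032, adjusted p = 1.60e-15) and Bach1 had -0.61 (SE 0.043, adjusted p = 2.79e-11), both lower under all scalings. With library size scaling 2 were higher and 2 lower, beside 9710 higher and 2649 lower of all 15504 genes.

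None of the 6 regulators was called in the Tg-GRK2-labelled libraries (0 of 6 by edgeR and 0 by DESeq2, beside 24.5% of all genes, with 1 at an unadjusted p under 0.05, median log2 fold change 0.0049). Snai1 (0.083, SE 0.16) and Bach1 (0.073, SE 0.041) had the highest values, and Ezh2 (-0.13, SE 0.12) and Creb1 (-0.10, SE 0.049) the lowest.

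**Figure D5:**
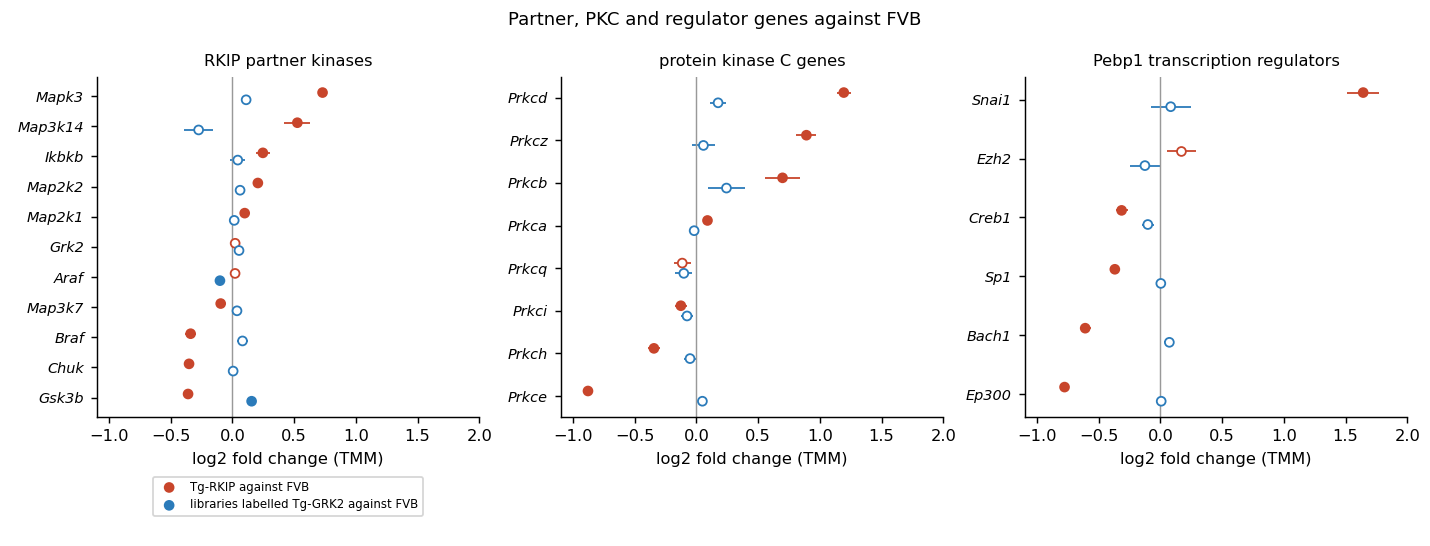
Log2 fold change against FVB (x axis, TMM-normalised counts) of each gene of the 3 lists in Tg-RKIP (red) and in the Tg-GRK2-labelled libraries (blue), with bars of 1 SE, where filled points passed an adjusted p of 0.05 and open points did not. Snai1 (1.64) and Prkcd (1.19) lie farthest to the right and Prkce (-0.88) farthest to the left in Tg-RKIP, while the blue points lie between -0.27 and 0.24.

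The genes that surround Pebp1, Pbp2 and Pebp4 in the genome were compared to describe their loci. Within 500000 bases of the members lay 84 other gene names, of which 41 passed the filter on low counts. Against FVB, 18 of these were higher and 9 lower in Tg-RKIP (65.9% called, beside 73.9% of all genes, median log2 fold change 0.25), and in the Tg-GRK2-labelled libraries 8 were higher and 4 lower (29.3%, beside 24.5%, median -0.012). With library size scaling the numbers in Tg-RKIP were 31 and 4, beside 9710 higher and 2649 lower of all 15504 genes. Around Pebp1 5 of 7 genes tested were higher and 0 lower in Tg-RKIP, around Pbp2 4 of 10 were higher and 2 lower, and around Pebp4 9 of 24 were higher and 7 lower. Of all genes tested in that comparison with TMM, 36.8% were higher and 37.1% lower. The counts by locus rest on few genes and were made with TMM only.

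The neighbours with the highest log2 fold changes in Tg-RKIP were Nos1, the neuronal nitric oxide synthase gene (1.90, SE 0.28, adjusted p = 3.27e-06 by edgeR), and Pdlim2 (1.74, SE 0.063). The lowest were Ppp3cc, a catalytic subunit gene of calcineurin (-0.81, SE 0.046), and the zinc transporter gene Slc39a14 (-0.75, SE 0.035). Nos1 kept its call under 15 of 16 alternatives, with 1.67 to 2.31 when 1 library was left out. With the filter, Nos1 was too low for the comparison in TPM. The value of Pebp1 in the same fit, given as a description, was 4.81, above that of every neighbour tested. In the Tg-GRK2-labelled libraries the extremes were Gm27177 (0.69, SE 0.52), Egr3 (0.37, SE 0.15), Gm15728 (-0.54, SE 0.58) and 9930012K11Rik (-0.49, SE 0.30), none of which passed the test.

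The genes with the profile most like that of the members were sought over the 9 libraries. Likeness was measured as the Euclidean distance between centred log2(TMM-normalised RPM + 0.5) values among 13426 genes with a mean of at least 1 RPM, and the 9 points of each profile share the libraries and their 3 groups. The nearest genes to Pebp1 were Gm26377 (distance 0.581), Comp (0.811), Sfrp2 (0.834), Col10a1 (0.882) and Ibsp (1.05), with Pearson's r between 0.997 and 0.9999, and for genes with few or no reads in FVB, namely Gm26377, Col10a1 and Ibsp, the distance depends on the 0.5 added. Comp encodes cartilage oligomeric matrix protein, Col10a1 a collagen of hypertrophic cartilage, Ibsp bone sialoprotein and Sfrp2 a secreted frizzled-related protein.

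Comp had 10584 to 13634 reads in Tg-RKIP and 421 to 525 in FVB, and Ibsp had 720 to 1010 and 0 to 2. Gm26377, which is annotated as a microRNA of 108 bases, had 478 to 776 reads in Tg-RKIP and 0 in each FVB library. The nearest genes to Pbp2 lay farther off, beginning with Col2a1, the main collagen of cartilage (distance 6.82), followed by Ibsp (9.21), Col10a1 (9.41), Gm26377 (9.71) and Spp1 (10.3), which encodes osteopontin. All distances to Pbp2 depend on the 0.5 added, since it had 3 reads or fewer in each library outside of Tg-RKIP, as do those of Col2a1, which reached 2563 to 3291 reads in Tg-RKIP against 0 to 3 in FVB. For Pebp4, whose profile rests on 4 reads, the nearest were the flat profiles of Klhl5, Bbs9, Gfra4, Trim3 and Pard6g.

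Transcript rows that were nearly absent outside of Tg-RKIP were counted by a rule set after the values were seen. Rows with at least 100 reads in each Tg-RKIP library and at most 5 in each of the others numbered 33, in 32 genes. Of these, 4 had at least 1000 reads in each Tg-RKIP library, namely Pebp1-202, Pbp2-201, a retained-intron row of Sptbn1 with 2240 to 2725 reads and a Col2a1 row with 2180 to 2623. Pebp1-202 and Pbp2 had the highest reads among the 33, with means of 153523 and 77301 reads in Tg-RKIP.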

How the data were processed

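The authors deposited read counts per transcript and library, as whole numbers without normalisation, and TPM values per transcript, which equal the TPM recomputed from counts and transcript lengths to within 5.50e-06. The aligner, the counting program and how shared reads were divided are not given in the sources used here, and GRCm39 is named in the submitters' processing notes. Reads and TPM were summed by gene name. The labels gave the group and number of each library. Each library was counted as 1 replicate, since the labels number them as replicates. No pair held identical values and all pairs of a group differed by more than counting noise. These checks do not show that the libraries come from separate hearts.

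The count test was that of edgeR 4.0.16 in R 4.3.3 (TMM, filterByExpr, glmQLFit and glmQLFTest, a mean per group over 9 libraries), with p-values adjusted by Benjamini-Hochberg over all 15504 genes or 34991 transcripts tested and a threshold of 0.05. The fit was tested on simulated data. DESeq2 1.42.0 and limma 3.58.1, on log2(TPM + 0.1) or log2(TPM + 1), were alternatives. Counting intervals at 95% were exact for ratios and Wilson's for shares, and 3 reads per library were the floor.

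The members and lists were chosen with earlier results of these data known. Named genes were the members, Grk2, Myh6, Myh7, the 2 highest and 2 lowest log2 fold changes of each list per comparison, and the 5 nearest profiles of each member. Col2a1 and Sptbn1 rows nearly absent elsewhere were named after their values were seen. Some genes of the kinase lists are not reported here, and list counts are without them. Sequences were read from GENCODE M21 by identifier, and protein sequences were not used here.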

Additional observations from a re-analysis of the deposited data

How the results depend on the processing

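The TPM fold of Pebp1 in Tg-RKIP over FVB (49.9) was 28.1 with TMM-normalised RPM and 36.5 with RPM. It was 91384 for Pebp1-202 alone, which was given the most Pebp1 reads over all libraries and rests on 5 reads in FVB. For Pebp1-201 alone, an alternative chosen after seeing the data, it was 16.7. The TPM fold of the gene was 49.5 to 50.2 with 1 library left out. The Pbp2 ratio was 29131 with TMM and 38928 in TPM, and 29611 to 53079 with 1 library left out, all within its counting interval, and the highest value was that without the third FVB library. The share of Pebp1-202 was 66.5% by TPM in place of 55.5% by reads, and 55.2 to 55.8% with 1 library left out. Pebp4 is given no fold under any alternative, since it had 3 reads or fewer in every library.

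Pebp1 in the Tg-GRK2-labelled libraries against FVB stayed lower and past the threshold under 15 of 18 alternatives, with log2 fold changes of -0.087 to -0.058 when 1 library was left out, and limma gave -0.020 on log2(TPM + 0.1), with or without the filter, and -0.020 on log2(TPM + 1), with adjusted p of 0.692, 0.855 and 0.700. Pebp1-201 remained below significance under all 15 alternatives (-0.080 to -0.052 with 1 library left out). Of the partner kinases, 2 were called in that comparison, where DESeq2 called 1, limma on log2(TPM + 0.1) called 1, and 0 without the filter, and leaving out 1 library gave 1 to 3. Of protein kinase C genes (0 called), 1 was called with size factors of DESeq2 and 1 with library size, and 0 to 1 with 1 library left out. Without the filter, limma called 3 in place of 5 regulators in Tg-RKIP and 4 in place of 12 neighbours in the Tg-GRK2-labelled libraries (9 to 13 with 1 library left out).

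Directions turned for 9 of the 38 single genes or transcripts compared. In Tg-RKIP, Chuk was at 0.024 with library size and 0.022, 0.021 and 0.022 with limma (log2(TPM + 0.1), log2(TPM + 1) and no filter), Gsk3b was at 0.016 with library size and 0.036, 0.034 and 0.036 with limma, and Prkch was at 0.031 with library size and 0.075, 0.067 and 0.075 with limma. In the Tg-GRK2-labelled libraries, limma gave 0.12, 0.098 and 0.12 for Prkcq, 0.054, 0.047 and 0.054 for Prkci and 0.022, 0.019 and 0.022 for Creb1. With 1 library left out, Grk2 in Tg-RKIP ranged from -0.013 to 0.057. In the Tg-GRK2-labelled libraries, Snai1 then ranged from -0.046 to 0.28 and Gm15728 from -1.09 to 0.36, while Snai1 in Tg-RKIP stayed at 1.53 to 1.83. The causes were not tested.

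The replicate numbers do not mark pairs, since deviations of libraries with the same number correlated at -0.032 to 0.024 (9 pairs, 0 above 0.1) and those with different numbers at -0.030 to 0.055. With the replicate number as a block, Pebp1 in the Tg-GRK2-labelled libraries was at -0.071 (adjusted p = 0.00554 by edgeR) and the counts of calls moved by at most 1.5 times, while Mapk3 passed in the same comparison (0.11, adjusted p = 0.0393). Depth limits Pebp4, Pebp1-203, Pebp1-204 and Pbp2 outside of Tg-RKIP, which had at most 13 reads per library.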
